A study of Mus musculus with 2 samples.

Results

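The POU-domain transcription factors described here are 9 genes, Pou2f1, Pou2f2, Pou3f1, Pou3f2, Pou3f3, Pou3f4, Pou4f1, Pou5f1 and Pou6f1, out of 43346 Ensembl genes in each gene table. They were chosen by name, as named members of the family, and each was found in the tables by its Ensembl gene ID. Together they cover 5 of the classes into which the family is divided by sequence. Total RNA of the mouse forebrain was measured in 2 libraries of 1 group, numbered as biological replicates 1 and 2. Each library came from a single forebrain of strain B6NCrl, a C57BL/6 substrain, taken at 14.5 days of embryonic development, and the labels name no allele or treatment. The libraries held 35310017 and 29250404 estimated counts. The labels give a different collection day for each forebrain but the same donor identifier for both, and call the sex mixed although each sample is described as 1 forebrain, so whether the spread includes that between litters or sexes is not known from them.

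POU proteins bind DNA with a bipartite domain, a POU-specific part and a POU homeodomain joined by a flexible linker, and many recognise the octamer element ATGCAAAT. In the developing brain, class 3 members (Pou3f1 to Pou3f4, also known as Oct6, Brn2, Brn1 and Brn4) are known for their part in neural progenitors, in the production and migration of upper-layer cortical neurons and in hypothalamic neurons. Other classes are known mainly from other settings, such as Pou5f1 (Oct4) from pluripotent cells and Pou4f1 (Brn3a) from sensory ganglia and the medial habenula.

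The recognition helix of the homeodomain is the part of these proteins that lies in the major groove of DNA, and the bases that encode its core are shown because the presence of this stretch is used below to sort transcripts. The sequences are 21-base stretches of GENCODE release M21 transcripts, read from 5′ to 3′, with capitals for a base that differs from the commonest base of the 9 genes at that position.
Pou2f1: tggttTtgtaaccgCcgccag
Pou2f2: tggttctgCaaccggcgccag
Pou3f1: tggttctgCaaccggcgGcag
Pou3f2: tggttTtgtaacAggAgAcag
Pou3f3: tggttctgCaaccgAcgccaA
Pou3f4: tggttctgtaaTAgAAgAcaA
Pou4f1: tggttTtgCaaccAgAgAcag
Pou5f1: tggttctgtaaccggcgccag
Pou6f1: tggttctgtaaTcgAcgccag
All 9 sequences were distinct, and they varied at 9 of 21 positions, of which 6 were the last base of a codon. Pou5f1 carried the commonest base at every position, and Pou3f4 differed from the commonest bases at 6 positions. The stretch encoded the same residues in 8 members and another residue at 1 place in Pou4f1. That near-identity was partly set by the search, which fixed all but 1 of the 7 residues. In all, 12 of 18 Pou2f1 transcripts, 8 of 10 Pou2f2 transcripts and 7 of 10 Pou6f1 transcripts held the stretch, and within a gene it was the same in each of them.

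Most of the 9 POU genes were expressed in the forebrain. In both libraries 8 members reached 1 TPM, a unit of transcript level that is divided by length and scaled to the library, and Pou5f1 did not. Over all 21474 protein-coding genes, 59.6% reached that level, and of 5 other POU genes outside the set 1 did. The 9 members were chosen with earlier results of these data known, so their levels do not stand for the whole family. The 7 members other than Pou4f1 and Pou5f1 had mean levels between 12.7 and 27.0 TPM, in a range that 63.5% to 75.4% of protein-coding genes lay below. The median of the 9 members was 15.3 TPM, against 4.27 TPM over all protein-coding genes. In whole tissue, fewer cells of a type and less RNA per cell cannot be told apart.

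**Figure D1:**
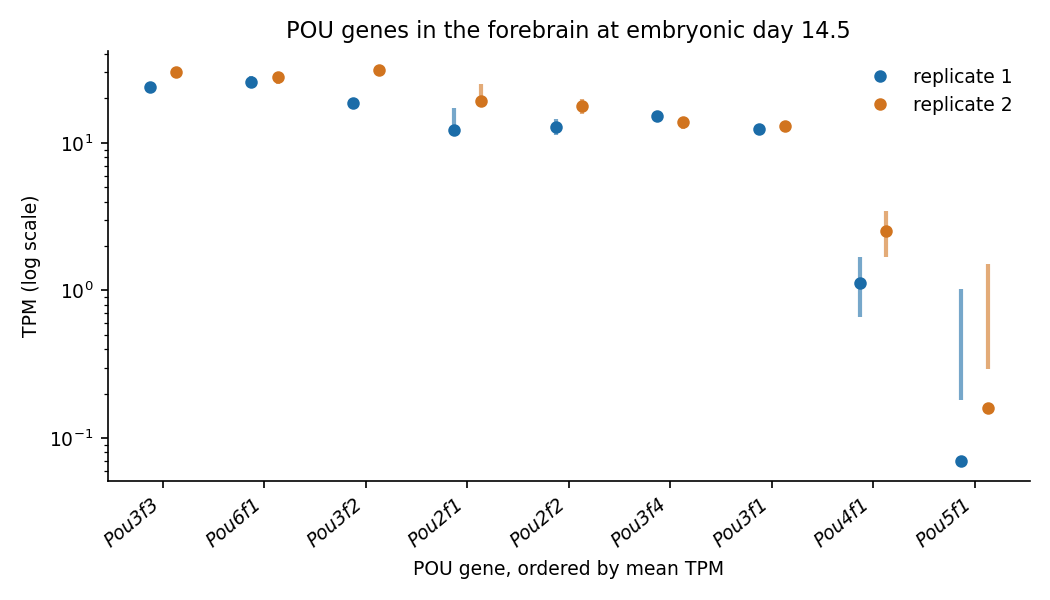
Level of each POU gene on a log scale of TPM in replicate 1 (blue) and replicate 2 (orange), with vertical bars for the deposited TPM interval of each library. The 7 highest genes lie between 12.25 and 30.87 TPM, Pou4f1 lies at 1.12 and 2.54 TPM, and the points of Pou5f1 lie under their own intervals.

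Class 3 genes, 4 of the 9 members, made up most of the signal of the set. The 4 genes summed to 70.05 TPM in replicate 1 and 87.86 TPM in replicate 2, which was 57.4% and 56.6% of the sum of the 9 members (57.0% ± 0.578, SD, n = 2). By counts, which are not divided by length, their share was 70.6% ± 1.42 (SD, n = 2). Class 3 thus held the larger part of the set on either scale, with nearly the same share of TPM in both libraries. That share also reflects how many of its genes are in the set. Pou6f1, the only class 6 gene, held 19.5% of the TPM, and the 2 class 2 genes held 22.2%.

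Pou3f3 (Brn1, GRCm38 chr1:42695768-42703176, plus strand), known for redundant action with Pou3f2 in cortical neurons, was at 24.02 TPM in replicate 1 and 30.07 TPM in replicate 2, with 4018 and 3873 counts. Its mean level of 27.0 ± 4.28 TPM (SD, n = 2) was the highest of the set, although it ranked second in each library. Pou3f2 (Brn2, chr4:22482780-22488366, minus strand) was at 18.54 and 30.87 TPM with 2328 and 2985 counts, a mean of 24.7 ± 8.72 TPM (SD, n = 2). It had the largest SD of the 9 genes in TPM: it was the third in replicate 1 and the highest in replicate 2, and its intervals of 17.4 to 18.8 and 28.8 to 31.0 TPM lay apart.

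Pou3f4 (Brn4, chrX:110814280-110817207, plus strand), whose human counterpart is mutated in an X-linked deafness and which is also expressed in the neural tube and ventral forebrain, was at 15.17 and 13.92 TPM with 982 and 694 counts. It was the only member with the lower TPM in replicate 2, and its intervals overlapped. Pou3f1 (Oct6, chr4:124656807-124660655, plus strand), known from promyelinating Schwann cells and from cortical neurons, was at 12.32 and 13 TPM with 1057 and 859 counts. Its SD of 0.481 TPM around a mean of 12.7 TPM (n = 2) was the smallest among the 7 genes above 5 TPM, and its intervals overlapped too. Each of the 4 class 3 genes was annotated with 1 protein-coding transcript of 1 exon, so their gene level is the level of that transcript.

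Class 2 genes encode the octamer factors. Pou2f1 (Oct1, chr1:165865154-166002678, minus strand), which is expressed in most cell types, was at 12.25 and 19.22 TPM, with 993 counts in each library (mean 15.7 ± 4.93 TPM, SD, n = 2). Its counts were nearly equal while its TPM differed. Replicate 2 was the smaller library, and relative to the library total its counts were 1.21-fold higher there. The mean transcript length behind the TPM was also shorter there, at 3641 nt in replicate 1 and 3032 nt in replicate 2. Both enter the TPM ratio. The TPM of replicate 1 lay just under its own deposited interval of 12.5 to 17.3 TPM, which is centred on another estimate, the posterior mean. Pou2f2 (Oct2, chr7:25087344-25179726, minus strand), known from B cells and also expressed in neurons, was at 12.78 and 17.73 TPM with 689 and 650 counts (15.3 ± 3.50 TPM, SD, n = 2). Of 6 B-cell markers, only Ighm reached 1 TPM, at 3.87 and 2.85 TPM, below Pou2f2 in both libraries. Ms4a1 had no count in either library, and the summed level of the 6 markers was 4.91 and 3.71 TPM.

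Pou6f1 (Brn5, class 6, chr15:100575318-100599984, minus strand), a factor of developing and adult brain, was at 25.77 and 27.77 TPM with 1925 and 1575 counts. Its mean of 26.8 ± 1.41 TPM (SD, n = 2) was second in the set and stood within its SD of that of Pou3f3. Its intervals in the 2 libraries overlapped, and it was the highest member in replicate 1 and the third in replicate 2.

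Pou4f1 (class 4, chr14:104461676-104467999, minus strand) was far lower, at 1.12 TPM from 60 counts in replicate 1 and 2.54 TPM from 120 counts in replicate 2 (1.83 ± 1.00 TPM, SD, n = 2). Its deposited intervals, 0.656 to 1.68 and 1.70 to 3.44 TPM, only just lay apart. Of 8 genes listed for the habenula, 7 were also higher in replicate 2 by TPM and 6 after TMM scaling, an edgeR scaling of counts that takes most genes as equal. Over the 11010 genes with a mean of 5 TPM or more, 72.4% were higher in replicate 2 by TPM and 45.8% after TMM scaling. Only 5 of the 8 habenula genes had such a mean, and neither count was tested against that background. The 8 genes differed widely among themselves. Tac2, a tachykinin precursor, was at 2.18 and 4.79 TPM, Nr4a2, an orphan nuclear receptor, at 6.79 and 13.77 TPM, and Gpr151, a receptor of habenular neurons, at 1.74 and 2.74 TPM. Tac1, another tachykinin precursor, was at 50.25 and 65.79 TPM, Etv1, an ETS factor, at 21.03 and 27.71 TPM, and Slc17a6, a vesicular glutamate transporter, at 37.30 and 40.15 TPM. Of the nicotinic receptor subunits, Chrnb4 was at 0.35 and 0.49 TPM and Chrna3 at 5.85 and 5.76 TPM, the latter lower in replicate 2. The 8 levels summed to 125 TPM in replicate 1 and to 161 TPM in replicate 2. Several of these genes are expressed elsewhere in the forebrain, and the part of habenular tissue in the Pou4f1 difference was not tested. Of 9 genes of sensory ganglia, the other main site of Pou4f1, only Isl1 and Ntrk2 reached 1 TPM in both libraries, and both are also expressed in the forebrain. None of 7 retina genes reached it.

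Pou5f1 (class 5, chr17:35506018-35510772, plus strand) had 2 counts in replicate 1 and 3 counts in replicate 2, listed as 0.07 and 0.16 TPM. The level of 3 counts, the limit that a count of 0 allows, was 0.104 and 0.165 TPM for this gene, so it was not detected above that limit at this depth, which covers counting error only. Its deposited intervals, with lower bounds of 0.182 and 0.295 TPM, lay above its own TPM, and no fold is given for it. Of the 12 genes listed for the pluripotency network, only Sox2, Klf4 and Dppa5a reached 1 TPM in both libraries, at means of 20.9, 1.36 and 2.05 TPM. Sox2 is also a gene of neural progenitors. Dppa3, Dppa4 and Tdgf1 had no count in either library.

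Of the other POU genes reported here, each had 7 counts or fewer in either library. Pou5f2, a gene known from testis, had 7 counts in each library. Pou2f3, known from tuft cells and skin, had 2 counts in replicate 1 and 1 count in replicate 2. Pou1f1 of the pituitary and Pou4f2 of retinal ganglion cells had no count.

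The order of levels was only partly resolved. A pair of genes was called separated when, in each library, the deposited interval of the same gene lay wholly above that of the other, and 26 of 36 pairs were. Among the 8 pairs that are neighbours in the order by mean TPM, only 2 were separated: Pou3f2 lay above Pou2f1 by 0.64 ± 0.06 on the log2 scale, and Pou3f1 lay above Pou4f1 by 2.91 ± 0.78 (SD, n = 2). The 3 highest genes, Pou3f3, Pou6f1 and Pou3f2, were not separated from each other, nor were Pou2f1 and Pou2f2 from each other or from Pou3f4 and Pou3f1. Pou3f4 was not separated from Pou3f1 either, with log2 ratios of 0.30 in replicate 1 and 0.10 in replicate 2. No pair lay apart in opposite directions. The 7 genes above 5 TPM thus fell into an upper group of 3 and a lower group of 4, and all 12 separated pairs among them joined a gene of the upper group to a gene of the lower.

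How much of each level came from protein-coding transcripts with sequence for both parts of the POU domain differed between members. Transcripts were sorted by their annotated type and by whether any reading frame of their sequence held the helix stretch and a conserved stretch of the POU-specific part. Whether both stretches shared an open reading frame was not checked, so the shares do not measure what can be translated. For the 4 class 3 genes the whole level came from a protein-coding transcript with both. For Pou6f1 only 31.6% ± 0.412 (SD, n = 2) of the TPM did, for Pou2f2 58.0% ± 0.175 and for Pou2f1 60.5% ± 1.95. By counts, which are not divided by length, the same transcripts held more: 48.9% ± 0.0636 for Pou6f1, 90.9% ± 0.795 for Pou2f2 and 84.6% ± 1.83 for Pou2f1 (SD, n = 2).

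**Figure D2:**
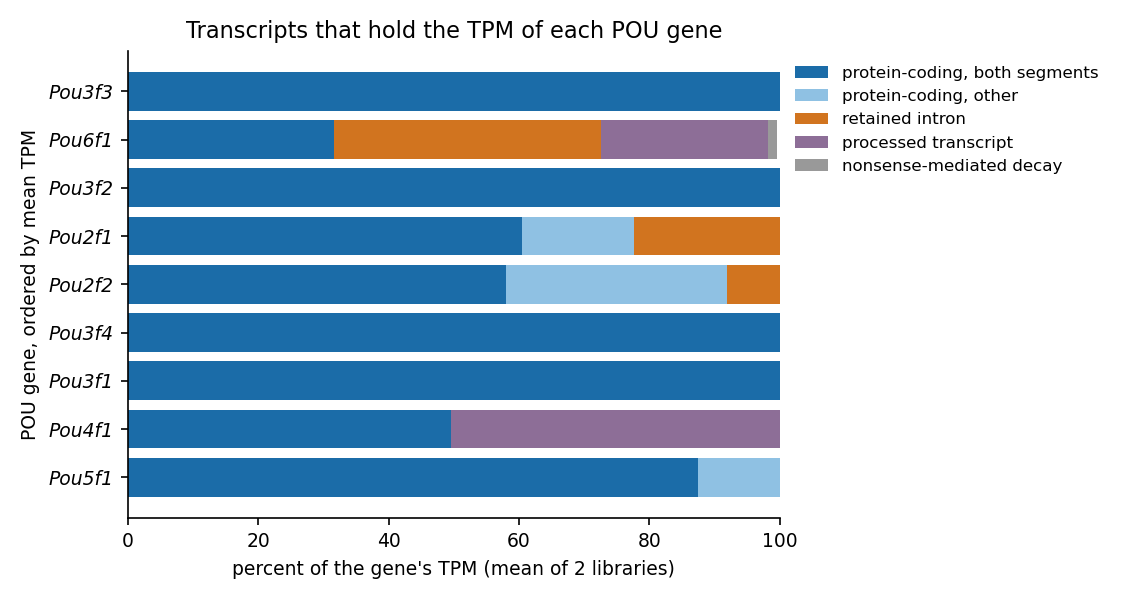
Percent of each gene's TPM, as the mean of 2 libraries, in protein-coding transcripts that hold both DNA-binding segments (dark blue), other protein-coding transcripts (light blue), retained introns (orange), processed transcripts (purple) and nonsense-mediated decay (grey). The class 3 genes are dark blue throughout, while 41.0% of the Pou6f1 level is in a retained intron, and the small white gap of Pou6f1 is a transcript not matched to the annotation.

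In Pou6f1, the transcript with the highest level was ENSMUST00000177335, annotated as a retained intron of 3654 nt in 2 exons. It held 41.90% of the gene's TPM in replicate 1 and 40.01% in replicate 2, from 878 and 696 counts. Its sequence held both DNA-binding segments. The second was ENSMUST00000177247, a processed transcript of 764 nt with neither segment, at 22.1% ± 1.84 of TPM (SD, n = 2) but only 4.77% and 4.30% of the counts. The leading coding transcript, ENSMUST00000073837, stood at 18.0% ± 0.990 (SD, n = 2), from 535 and 411 counts. The shares of these transcripts barely moved between the libraries. Transcripts of any type with both segments held 73.9% ± 0.673 of the TPM (SD, n = 2) and 94.8% ± 0.148 of the counts.

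In Pou2f2, a coding transcript of 609 nt, ENSMUST00000147146, led by TPM with 33.58% and 34.12%, yet it held neither segment and only 50 and 54 of the counts. ENSMUST00000108418, a coding transcript with both segments, held 30.49% and 30.35% of the TPM. ENSMUST00000175774, a coding transcript of 7047 nt with both segments, held 21.31% of TPM and 62.8% of the counts in replicate 1 but 11.54% and 38.5% in replicate 2. The first 2 of these shares were nearly the same in both libraries and the third was not.

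In Pou2f1, ENSMUST00000160908 with both segments held 27.91% and 28.82% of the TPM. ENSMUST00000184799, a coding transcript of 592 nt with neither segment, was at 8.85% in replicate 1 and 22.56% in replicate 2, from 12 and 38 counts. ENSMUST00000176101, a retained intron, was at 10.75% and 12.21%. The TPM of Pou2f1 was higher in replicate 2, the smaller library, at nearly equal counts. Beside this, more counts of replicate 2 were on the short transcript and on ENSMUST00000069609, which had 9 counts in replicate 1 and 121 in replicate 2. That last transcript was named after its values were seen. The shares of Pou2f1 transcripts thus varied more between libraries than those of Pou6f1. In Pou4f1, the coding transcript ENSMUST00000053016 held 44.84% and 54.49% of the TPM and the processed transcript ENSMUST00000139505 the rest, from 10 and 14 counts, so the split rests on few reads.

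Counting only protein-coding transcripts with both segments, a choice made after the data were seen, changed the order. Pou6f1 went from 26.8 to 8.47 ± 0.339 TPM (SD, n = 2), Pou2f1 from 15.7 to 9.48 ± 2.68 TPM and Pou2f2 from 15.3 to 8.86 ± 2.06 TPM. The 4 class 3 genes kept their levels and took the first 4 places. Of the 26 separated pairs, 4 turned over in the mean, each of them with Pou6f1 as the gene that had been higher. Pou6f1 lay below Pou3f4 and Pou3f1 in both libraries. Against Pou2f1 and Pou2f2 it turned over in replicate 2 only, at 8.71 TPM against 11.37 and 10.31 TPM, while in replicate 1 it was still the higher, at 8.23 TPM against 7.58 and 7.40 TPM.

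**Figure D3:**
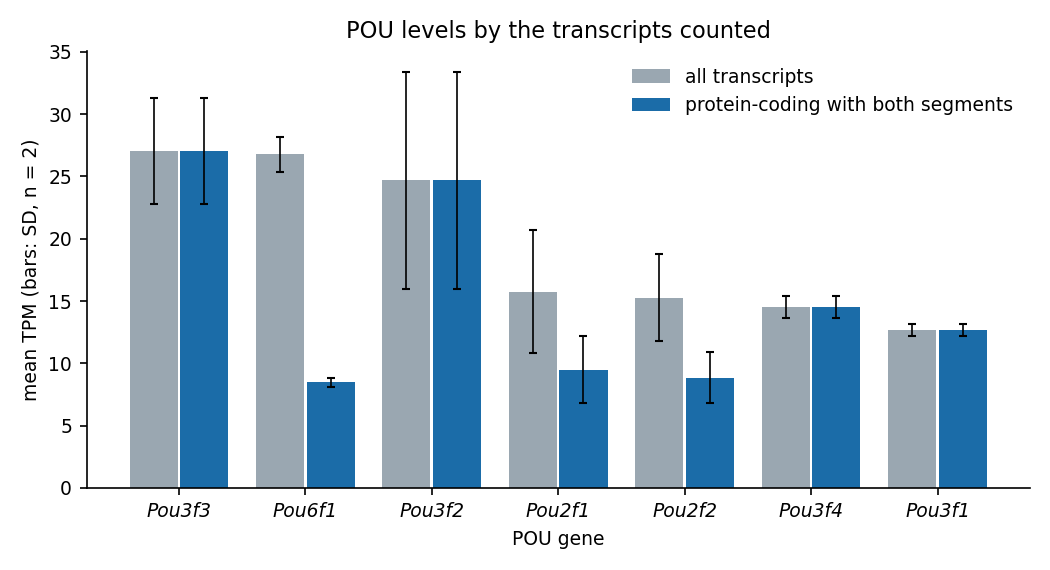
Mean TPM of the 7 POU genes above 5 TPM over all transcripts (grey) and over protein-coding transcripts with both DNA-binding segments (blue), with SD bars over 2 libraries. Pou6f1 drops from 26.8 to 8.47 TPM, while the 4 class 3 genes keep the same bar.

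Between the 2 libraries, no member differed by the rule used for all genes, which asked for a mean of 5 TPM or more, a 2-fold ratio and intervals that lay apart. Of 11010 eligible genes, 53 did (0.481%), 34 of them higher in replicate 2 (0.309%) and 19 lower (0.173%). With 7 eligible members, a count of 0 stands near that background. At a 1.5-fold ratio, Pou3f2 (1.67-fold higher in replicate 2) and Pou2f1 (1.57-fold) were called, against 5.61% of all genes (5.06% higher in replicate 2). With a minimum of 1 TPM in place of 5, Pou4f1 was called at 2.27-fold, against 1.29% of all genes (1.08% higher in replicate 2).

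TPM were higher in replicate 2 for 72.4% of all genes and for 6 of the 7 members, with a median log2 ratio of 0.14 over the 11010 genes and 0.32 over the 7 members. After TMM scaling of the counts the medians were -0.02 and 0.13. On that scale Pou3f2 was 1.48-fold and Pou4f1 2.31-fold higher in replicate 2, while Pou2f1 was 1.16-fold. Pou3f4 was lower in replicate 2 on both scales, with log2 ratios of -0.12 in TPM and -0.29 after TMM. For Pou6f1 and Pou3f1 the direction turned, from log2 ratios of 0.11 and 0.08 in TPM to -0.08 and -0.09. The 4 class 3 genes did not move together: Pou3f2 was well above the median of all genes on both scales, Pou3f3 above it, and Pou3f1 and Pou3f4 below it. No test was made, since the smallest p that an exact comparison of 2 single libraries allows is 0.5.

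**Figure D4:**
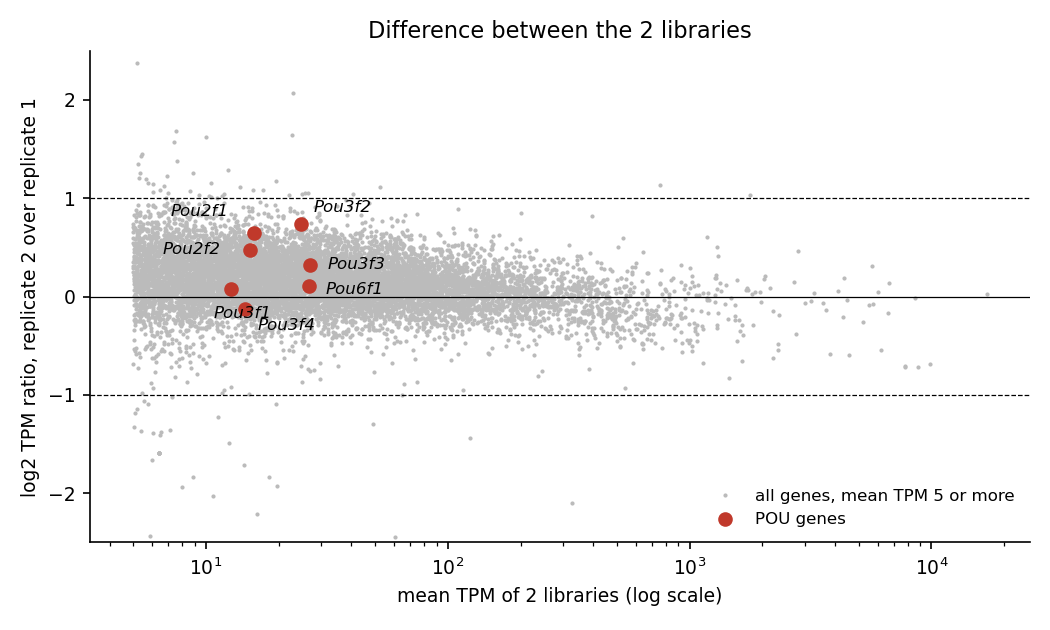
Log2 ratio of TPM, replicate 2 over replicate 1, against mean TPM on a log scale for all genes with a mean of 5 TPM or more (grey) and the 7 POU genes among them (red), with dashed lines at a 2-fold ratio. All 7 POU genes lie between the lines, with Pou3f2 highest. On this plot 6 grey points fall outside the axis and 12 with no finite ratio are not drawn.

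Genes of upper-layer cortical neurons, the cells in whose production Pou3f2 and Pou3f3 are known to act, also differed between the libraries. All 7 genes of that list were higher in replicate 2, by TPM and after TMM scaling, against 72.4% and 45.8% of all genes, and their levels summed to 154 TPM in replicate 1 and to 239 TPM in replicate 2. Cux1, a homeobox factor of upper-layer neurons, was at 74.16 and 97.42 TPM, and Mef2c, a MADS-box factor, was at 35.74 and 61.81 TPM. Of the 6 with a mean of 5 TPM or more, 4 passed the 1.5-fold rule as higher in replicate 2 (among them Mef2c and, named after their values were seen, Cux2 and Rorb), against 5.06% of all genes. The median log2 ratio of the 6 was 0.84 in TPM and 0.53 after TMM. Pou3f2, at 0.74 and 0.57, stood close to these medians, and Pou3f3, at 0.32 and 0.16, lower. With 1 forebrain per library, the collection day, dissection, RNA quality, library preparation and any difference in stage between the forebrains cannot be told apart.

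All 10 general forebrain markers reached 1 TPM, with a median of 39.9 TPM. Their median log2 ratio between the libraries was 0.04, and none passed the 1.5-fold rule. Lhx2, a factor of the cortical primordium, was at 84.47 and 72.67 TPM. Dlx1, a factor of ventral interneurons and their progenitors, was at 127.80 and 149.61 TPM. None of the 14 genes listed for hindbrain and spinal cord reached 1 TPM, and Hoxa3, Hoxa4 and Hoxb3 had no count in either library, so the markers went with the labelled tissue in both libraries.

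**Figure D5:**
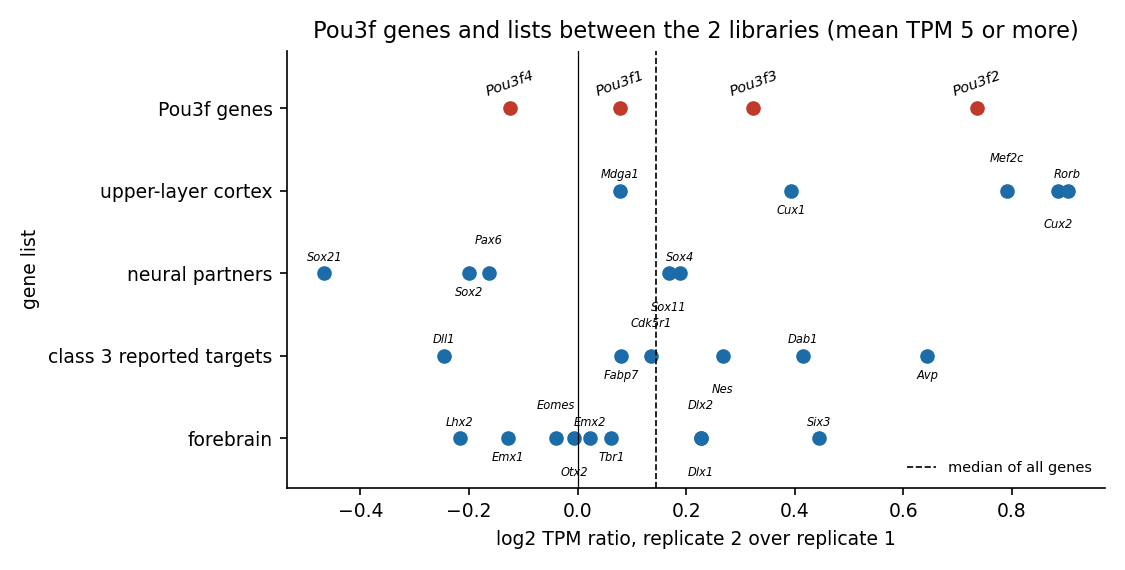
Log2 ratio of TPM, replicate 2 over replicate 1, of the class 3 POU genes (red) and of the genes of 4 lists (blue) with a mean of 5 TPM or more, apart from list genes that are not reported here. The dashed line marks the median of all genes at 0.14, and Mef2c, Cux2, Rorb and Pou3f2 lie far to its right. Dlx1 and Dlx2 share 1 point.

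POU proteins act on DNA with partner factors such as those of the SOX family, and these were detected throughout. All 7 neural partners reached 1 TPM. Sox11, a SoxC factor of young neurons, was at 788 and 886 TPM, and Sox4, of the same group, at 226 and 258 TPM. The progenitor factors were lower: Pax6 was at 42.36 and 37.82 TPM, and Sox2, known to bind with class 3 factors at a nestin enhancer, at 22.33 and 19.45 TPM. Sox21 had a mean of 6.68 ± 1.51 TPM and Sox3 of 2.42 ± 0.566 TPM (SD, n = 2). Of these 7 genes only Sox11 and Sox4 were higher in replicate 2 by TPM, against 72.4% of all genes with a mean of 5 TPM or more. Their log2 ratios of 0.17 and 0.19 stood near the median of 0.14 over those genes. After TMM scaling, 2 of the 7 were higher, against 45.8%.

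Of 9 genes reported as class 3 targets, 7 reached 1 TPM in both libraries. Fabp7, a fatty acid binding protein of radial glia, was at 1264 and 1336 TPM. Dab1, the adaptor of reelin signalling, was at 85.62 and 114.20 TPM, and Cdk5r1, an activator of the kinase Cdk5 in migrating neurons, was at 70.97 and 77.92 TPM. Cdk5r2, its paralog, was lower, with a mean of 4.15 ± 0.389 TPM (SD, n = 2). Dll1, a Notch ligand, had a mean of 22.5 ± 2.71 TPM, and Nes, the progenitor filament nestin, of 20.9 ± 2.73 TPM (SD, n = 2). Of the hypothalamic neuropeptide genes, Avp was at 14.72 and 23.00 TPM, Crh at 0.89 and 1.30 TPM and Oxt at 0.10 and 0.56 TPM, so only Avp was clearly above 1 TPM in both. Of the 6 genes with a mean of 5 TPM or more, only Avp passed the 1.5-fold rule, as higher in replicate 2. Over all genes 5.61% passed it (5.06% higher in replicate 2).

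Cofactors of the octamer factors were expressed, apart from the one that is known from B cells. Of 10, 9 reached 1 TPM, with a median of 54.0 TPM over the list. Parp1, Gtf2b and Snapc3 were the highest, at means of 103, 101 and 79.7 TPM. Gtf2b is a general transcription factor, Parp1 a poly(ADP-ribose) polymerase and Snapc3 a subunit of a complex that binds promoters of small nuclear RNA genes. Hcfc1, the host cell factor, was at 50.37 and 49.20 TPM. Pou2af1, the coactivator of Pou2f1 and Pou2f2 in B cells, had 3 counts in each library.

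Lists for other cell types in which POU genes act differed in how much of them was detected. Of the 8 genes listed for Schwann cells and the oligodendrocyte lineage, where Pou3f1 acts, 5 reached 1 TPM in both libraries, led by Olig1 at 15.02 and 26.52 TPM. All 8 were higher in replicate 2 by TPM and after TMM scaling, against 72.4% and 45.8% of all genes, with sums of 39.67 and 60.98 TPM, while Pou3f1 itself was at 12.32 and 13 TPM. Of 4 genes of the inner ear, where Pou3f4 acts, only Coch reached 1 TPM, at 4.28 and 5.94 TPM. All 6 microglia genes reached 1 TPM (median 17.4 TPM). Of 6 germ-cell genes, 2 were detected, Tfap2c at a mean of 17.8 TPM and Nanos3 at 3.05 TPM.

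The genes next to the POU loci were read because transcripts that overlap can share reads, and whether counting used the strand is not given in the sources used here. Within 10 kb lay 19 annotated genes, of which 15 were in the tables and 8 reached 1 TPM in both libraries. The most abundant was Pantr1, a long non-coding RNA gene read away from Pou3f3 on the other strand, whose start lies 926 bases from that of Pou3f3. It was at 447 and 425 TPM, which per length was 18.6-fold and 14.1-fold the level of Pou3f3. By counts the 2 genes were closer, with 5188 and 3811 for Pantr1 against 4018 and 3873 for Pou3f3. Pantr1 was thus the higher in replicate 1 and slightly the lower in replicate 2. Their annotated bounds do not overlap, and whether they share reads was not tested. AC122898.1, which overlaps the whole of Pou3f3 on the same strand, was at 1.62 and 1.49 TPM. D930028M14Rik, a non-coding gene on the other strand within Pou2f2, was at 14.94 and 13.18 TPM, near the level of Pou2f2 itself. Cd247, which overlaps the end of Pou2f1 on the other strand, was at 0.77 and 1.30 TPM, and Gm2164, which overlaps the start of Pou3f1 on the other strand, had 1 count in replicate 1 and none in replicate 2.

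The promoters of 3 class 3 genes are shown because these genes carried much of the level of the set. The windows run from 250 bases before to 50 after the start that RefSeq gives, which for Pou3f4 lies downstream of the GENCODE start given above. They are from the RefSeq promoter table (build GRCm38.p6), and are read 5′ to 3′ on the strand of the gene, with capitals for the letters CCAAT on either strand.
Pou3f2 (chr4:22488317-22488616, minus strand): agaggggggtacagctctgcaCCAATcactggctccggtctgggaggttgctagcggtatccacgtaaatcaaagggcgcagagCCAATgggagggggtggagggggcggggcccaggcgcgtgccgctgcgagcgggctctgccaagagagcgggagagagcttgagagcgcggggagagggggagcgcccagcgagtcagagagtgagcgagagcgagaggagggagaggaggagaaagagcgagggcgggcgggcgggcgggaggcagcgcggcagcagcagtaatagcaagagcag
Pou3f3 (chr1:42695518-42695817, plus strand): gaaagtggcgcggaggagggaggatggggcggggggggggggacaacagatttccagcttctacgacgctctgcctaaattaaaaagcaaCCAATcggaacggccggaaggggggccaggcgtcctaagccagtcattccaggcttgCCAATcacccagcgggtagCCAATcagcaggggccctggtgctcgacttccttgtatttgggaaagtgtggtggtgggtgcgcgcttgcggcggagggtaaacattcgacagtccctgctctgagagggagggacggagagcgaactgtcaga
Pou3f4 (chrX:110814129-110814428, plus strand): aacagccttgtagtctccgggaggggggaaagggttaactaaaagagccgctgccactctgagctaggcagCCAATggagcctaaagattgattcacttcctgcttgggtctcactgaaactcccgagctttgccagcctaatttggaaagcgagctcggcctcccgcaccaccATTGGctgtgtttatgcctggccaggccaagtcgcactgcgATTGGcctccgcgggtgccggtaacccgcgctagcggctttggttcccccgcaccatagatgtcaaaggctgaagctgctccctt
The letters CCAAT occurred 2 times in the window of Pou3f2 and 3 times in those of Pou3f3 and Pou3f4. Over the 32851 windows of the table, 37.4% held them at least once, 11.7% at least 2 times and 3.37% at least 3 times. The table held 11 windows for 8 of the members and none for Pou3f1. Both Pou5f1 windows held CCAAT once, and those of Pou2f1, Pou2f2, Pou4f1 and Pou6f1 did not hold it. The octamer letters ATGCAAAT were in none of the 11 windows on either strand, against 1.74% of all windows. The letters TATAAA were in 1 window, of Pou2f1, against 13.6% of all. These matches describe letters in these windows and not binding.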

How the data were processed

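Total RNA longer than 200 nt was measured in 2 libraries made from 10 ng each with spike-ins, per the labels, which also link a Smart-seq protocol. The submitters' processing notes name assembly mm10 (that is, GRCm38) and the M4 release of GENCODE. The aligner, the quantifier and strand use are not given in the sources used here. The authors deposited expected counts (estimated reads, which need not be whole), TPM, FPKM, each transcript's percent of the TPM of its gene, and posterior mean TPM with interval bounds whose level is not stated, per the file headers. Each TPM interval bound was used as a signal value, as deposited. Transcript lengths were also deposited.

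Names, biotypes and positions were taken from release M21 of GENCODE, matched by ID without version for 42462 of 43346 genes, and 47 of 50 member transcripts had the same length there. Means and SDs are over 2 libraries. With 1 group, no test between groups was made. Differences between libraries were called over all genes. TMM factors came from edgeR on expected counts rounded to whole numbers. Motifs were searched on both strands. The members and gene lists were chosen with earlier results of these data known. All 9 members are named, with every gene of the lists of POU genes, cofactors, partners, targets and habenula, the 3 highest and the undetected genes of other lists, genes within 10 kb and the 3 highest transcripts of each member. Exceptions are marked. Some of these genes are not reported here, but all counts, sums and medians include them. With 2 libraries no likeness of pattern between genes was measured. Counting error only is covered by limits of 3 counts. Python 3.11.15, pandas 2.3.3, NumPy 2.4.6, Biopython 1.88, matplotlib 3.10.9, R 4.3.3 and edgeR 4.0.16 were used.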

Additional observations from a re-analysis of the deposited data

How the results depend on the processing

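The count of members at 1 TPM or more and the count of separated pairs stayed within 1.5 times of 8 and 26 under every alternative tried. For the pairs this was largely fixed by the method. Posterior mean TPM, FPKM and rescaling over Ensembl genes left the intervals in the same relation, so 26 had to recur. Leaving out replicate 1 or 2 can only raise the count, here to 31 and 29. By counts (32) and by protein-coding transcripts (28), the gene intervals were only rescaled and not estimated anew. No member differed between libraries at the settings used. With no minimum on TPM and with a minimum of 1 TPM, 1 member (Pou4f1) was called, and at 1.5-fold 2 members were. Over all genes the 53 calls became 406 with no minimum, 190 with a minimum of 1 TPM, 618 at 1.5-fold, 96 without the interval criterion and 34 with TMM-scaled counts, where the share of calls higher in replicate 2 was 26.5% in place of 64.2%. By counts in place of TPM, the share of protein-coding transcripts was 48.9% in place of 31.6% for Pou6f1, 87.1% in place of 77.7% for Pou2f1, 98.7% in place of 91.9% for Pou2f2 and 85.8% in place of 49.6% for Pou4f1, since TPM divides by length and the shorter non-coding transcripts hold a smaller share of counts than of TPM.

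Pou6f1, not separated from Pou3f2 in TPM, lay below it by counts (log2 ratio -0.60) and by protein-coding transcripts with or without the requirement of both segments (-1.50). With both segments, an alternative chosen after seeing the data, Pou2f2 lay below Pou3f4 (-0.73), and the share of such transcripts in Pou2f2 was 90.9% by counts in place of 58.0%. The cause was not tested beyond the length and type of the transcripts. No paired analysis was possible because the design has 1 group, so no replicate number is shared between groups. With 2 libraries, 1 forebrain each, every difference between them rests on 1 sample a side. Pou4f1 rests on 60 and 120 counts, and Pou5f1 on 2 and 3.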
